A study of Rattus norvegicus with 18 samples.

Results

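Among the genes measured in rat liver, 9 belong to a short chain of inflammatory signalling: the ligands Cxcl1, Ccl2 and Il1b, the sensors Cd14 and Tlr4, the inhibitor Nfkbia, the adhesion molecule Icam1, and the alarmins S100a8 and S100a9. They were taken by symbol and make up 9 of the 33657 genes in the deposited expression table. In the study, obese rats were fed plantain or orlistat and their livers were sequenced as bulk RNA, in 18 libraries, 3 for each of 6 groups. The tissue came from male rats aged 18 weeks in every group. The orlistat group was obese and was given orlistat, a lipase inhibitor used against obesity, as the positive control. The obese control was given water, as was the healthy group that served as normal control. Plantain was fed to 3 further groups of obese rats, at a low, a medium or a high dose. The labels used here name no strain, no way in which obesity was brought about, no dose amounts and no length of treatment. Whether replicate libraries stem from different animals is not stated there, and the p-values speak only for the variation among libraries, some of which may be technical.

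CD14 binds bacterial lipopolysaccharide and hands it to Toll-like receptor 4, whose signal frees the transcription factor NF-kB from IkBalpha, the inhibitor encoded by Nfkbia. NF-kB is a known activator of Cxcl1, Ccl2, Il1b, Icam1 and of Nfkbia itself, which closes a negative feedback loop. In liver, Kupffer cells, the resident macrophages, are a main site of this response, and S100A8 and S100A9 form a dimer that is abundant in neutrophils and monocytes and can itself act on Toll-like receptor 4.

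Values are FPKM, fragments per kilobase of gene length and per M fragments, so levels may be compared between genes. Recovered reads ran from 16.6 to 26.2 M per library. The hepatocyte gene Alb, for albumin, stood between 48300 and 62100 FPKM in the 18 libraries. Differences are log2 differences of FPKM + 1 with their standard error from 1 limma fit of all 6 groups, and a gene was called at an adjusted p under 0.05. This scale understates the change of genes at low FPKM. A minimum of 1 FPKM in 3 or more samples left 11945 genes to test. Of the 9 genes, 7 were tested. Ccl2 and Tlr4 were below 1 FPKM in all 18 libraries and have no test.

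The obese control stood above the normal control for 6 of the 7 tested genes and below it for 0. Against the same obese control the 4 treated groups moved the genes in both directions, and no treated group moved all of them one way. With orlistat 3 genes were higher (Cxcl1, Cd14 and Nfkbia) and 4 lower (Il1b, Icam1, S100a8 and S100a9). At the low dose 2 were higher (Icam1 and S100a8) and 2 lower (Cxcl1 and Nfkbia), at the medium dose 2 were higher (Cd14 and Icam1) and 2 lower (Il1b and Nfkbia), and at the high dose 1 was higher (Icam1) and 2 lower (Cxcl1 and Il1b).

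These counts stand against large shares of all tested genes. Of the 11945 genes, 51.8% were called with orlistat against the obese control (26.2% higher, 25.6% lower). The share was 33.0% at the low dose (18.3% higher, 14.8% lower), 41.9% at the medium dose (21.8% higher, 20.1% lower) and 51.9% at the high dose (26.6% higher, 25.3% lower). It was 55.1% in the obese control against the normal control, with 26.7% higher and 28.4% lower. A test of equality of the 6 groups called 7 of 7 of the genes and 72.1% of all genes. The median log2 difference over the 7 genes was 0.60 in the obese control against the normal control, where that of all tested genes was 0.00. The member median was -0.29 with orlistat against the obese control, 0.14 at the low dose, 0.01 at the medium dose and 0.07 at the high dose, beside medians of all genes between -0.01 and 0.01. The 4 treatment comparisons share the obese control libraries, so their values are given side by side and were not compared with each other.

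In the other 10 pairs of groups the members split as follows. Against the normal control, 4 were higher with orlistat (44.1% of all genes called in either direction), 6 at the low dose (47.8%), 5 at the medium dose (45.3%) and 5 at the high dose (42.4%), and 0 were lower in each. Against orlistat, Icam1, S100a8 and S100a9 were higher and Cxcl1 and Nfkbia lower at the low dose (36.8% of all genes called), the medium dose (26.9%) and the high dose (15.1%), where Cd14 was lower as well (-0.22 ± 0.06, lost with no filter, in a fit of only the 2 groups, and without orlistat replicate 1 (-0.21) or 2 (-0.17) or high-dose replicate 1 (-0.24) or 2 (-0.19)). The S100a8 call at the medium dose against orlistat (0.52 ± 0.16, limma adjusted p = 0.024) was lost with no filter, in a fit of only the 2 groups, and without orlistat replicate 1 (0.45) or 3 (0.37) or medium-dose replicate 1 (0.41). That at the high dose (0.51 ± 0.16, limma adjusted p = 0.042) was lost with no filter, with voom, with the replicate number as a block (limma adjusted p = 0.052) and in a fit of only the 2 groups. It was also lost without orlistat replicate 1 (0.45) or 3 (0.36) or high-dose replicate 1 (0.50) or 3 (0.41). Between the doses, Cxcl1, Cd14 and Icam1 were higher at the medium than at the low dose (23.0% of all genes called) and lower at the high than at the medium dose (20.3%), and Il1b alone was lower at the high than at the low dose (32.7%). That Il1b call (-0.33 ± 0.12, limma adjusted p = 0.045) was lost with no filter, as TPM (-0.27), with voom, with the replicate number as a block (limma adjusted p = 0.057) and in a fit of only the 2 groups. It was also lost without low-dose replicate 1 (-0.33) or 3 (-0.27) or high-dose replicate 1 (-0.20) or 3 (-0.35).

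**Figure D1:**
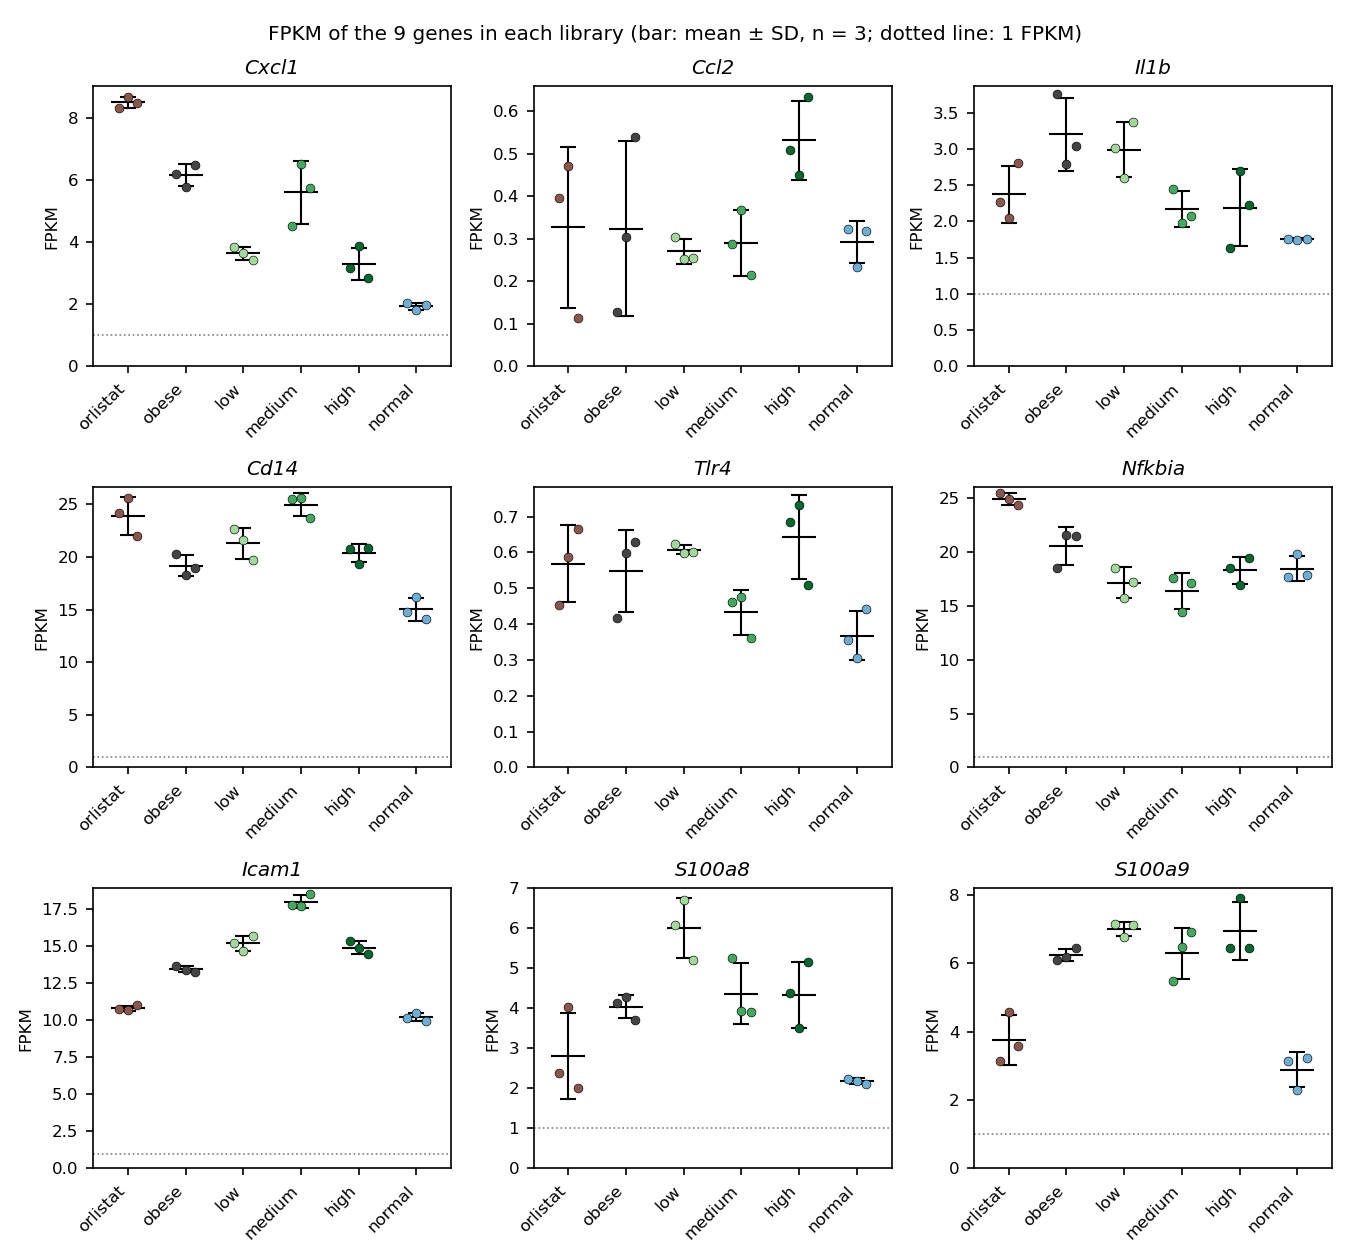
FPKM (vertical axis, from 0) of the 9 genes in each of the 18 libraries, by group; points are libraries, bars are the mean ± SD (n = 3) and the dotted line marks 1 FPKM. Ccl2 and Tlr4 stay below 1 FPKM throughout, Cxcl1 runs from 1.82 to 8.67 FPKM, and Icam1 is tightly grouped within each group.

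Cxcl1, a neutrophil-attracting chemokine (ENSRNOG00000002802, chromosome 14, 18743685 to 18745457 on the minus strand in the file's coordinates), spread most widely of the 9 genes, with a highest group mean 4.38-fold above the lowest. It was highest with orlistat and lowest in the normal control. The low and high doses held it below the obese control while the medium dose did not. Its level was 8.32, 8.67 and 8.48 FPKM with orlistat and 6.19, 5.77 and 6.48 FPKM in the obese control. With plantain it was 3.85, 3.64 and 3.41 FPKM at the low dose, 4.53, 6.52 and 5.74 FPKM at the medium dose and 3.16, 3.86 and 2.86 FPKM at the high dose. The normal control had 2.03, 1.82 and 1.96 FPKM. The orlistat libraries all lay above every other library, the normal control libraries all below, and the medium-dose libraries overlapped the obese control. These levels rest on 43 to 166 reads per library.

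Against the obese control, Cxcl1 was higher with orlistat by 0.41 ± 0.10 (limma adjusted p = 0.0021). It was lower at the low dose (-0.63 ± 0.10, limma adjusted p = 0.00011) and at the high dose (-0.74 ± 0.10, limma adjusted p = 1e-05). At the medium dose the difference was -0.13 ± 0.10 (limma adjusted p = 0.32). All 4 obese groups on treatment stayed above the normal control, by 1.69 ± 0.10 with orlistat, 0.66 ± 0.10 at the low dose, 1.16 ± 0.10 at the medium dose and 0.54 ± 0.10 at the high dose (limma adjusted p of at most 3e-04). The levels therefore did not follow the order of the doses: the medium dose was above the low dose by 0.50 ± 0.10 (limma adjusted p = 0.0013), the high dose was below the medium dose by a log2 difference of -0.61 ± 0.10 (limma adjusted p = 0.00029), and the high and low doses differed by -0.12 ± 0.10 (limma adjusted p = 0.39). In bulk tissue, fewer cells of a type and less RNA per cell cannot be told apart, for this gene and those that follow.

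Because NF-kB is a known activator of Cxcl1, Ccl2, Il1b, Icam1 and Nfkbia, the promoters of the members were searched for a site of the NF-kB type. The RefSeq promoter table (build GRCr8) matched 7 of the 9 symbols, and S100a8 and Ccl2 were not matched. The search used the 250 bases before each gene's annotated start and the letters GGANTTTCC on both strands, a motif chosen after the promoters had been seen. Cxcl1 and Icam1 held 1 match each and Nfkbia held 2, while Il1b, Cd14, Tlr4 and S100a9 held 0. Of all 33469 promoters in the table, 1.08% held a match. Since the letters were chosen with the members' promoters in view, shares of all promoters cannot test whether the members hold the motif more often. A match is a run of letters and not a site of binding, and 0 matches says only that these letters are not in the window. The 3 promoters with matches are shown 5′ to 3′ on the gene's strand in lower case, with the matched bases in capitals as they read on that strand. They are chr14:17479322-17479571 on the minus strand for Cxcl1, chr6:78597073-78597322 on the minus strand for Nfkbia and chr8:27829595-27829844 on the plus strand for Icam1.
Cxcl1: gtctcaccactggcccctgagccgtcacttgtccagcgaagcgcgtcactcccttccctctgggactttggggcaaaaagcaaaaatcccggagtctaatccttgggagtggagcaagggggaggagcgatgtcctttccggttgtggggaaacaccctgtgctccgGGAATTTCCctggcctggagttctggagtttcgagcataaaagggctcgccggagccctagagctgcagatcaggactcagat
Nfkbia: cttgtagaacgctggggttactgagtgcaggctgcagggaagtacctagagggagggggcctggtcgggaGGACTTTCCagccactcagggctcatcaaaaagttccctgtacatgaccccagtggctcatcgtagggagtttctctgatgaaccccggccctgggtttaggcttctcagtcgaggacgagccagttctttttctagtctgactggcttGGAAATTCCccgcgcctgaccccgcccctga
Icam1: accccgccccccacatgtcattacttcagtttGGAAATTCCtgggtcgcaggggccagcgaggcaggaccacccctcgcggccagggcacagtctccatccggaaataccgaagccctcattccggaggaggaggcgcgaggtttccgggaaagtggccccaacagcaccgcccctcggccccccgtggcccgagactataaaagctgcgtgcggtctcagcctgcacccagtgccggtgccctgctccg

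Counting the base just before the annotated start as -1, the match in Cxcl1 lies at -83 to -75 on the gene's strand and reads GGAATTTCC, a form found in 0.287% of all promoters. Nfkbia has GGACTTTCC, found in 0.266% of all promoters, at -180 to -172 on the gene's strand and GGAATTTCC on the other strand at -31 to -23. Icam1 has GGAATTTCC on the other strand at -218 to -210. The 3 genes with a match did not share a pattern over the groups. Cxcl1 and Nfkbia were called higher with orlistat and Icam1 lower, and at the low dose Cxcl1 and Nfkbia were called lower and Icam1 higher.

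Ccl2, a monocyte-attracting chemokine (ENSRNOG00000007159, chromosome 10, 69412017 to 69413870, plus strand), was close to undetected in every group. It stood at 0.396, 0.471 and 0.113 FPKM with orlistat and at 0.128, 0.305 and 0.539 FPKM in the obese control. Plantain groups had 0.305, 0.252 and 0.256 FPKM at the low dose, 0.289, 0.368 and 0.214 FPKM at the medium dose and 0.51, 0.451 and 0.633 FPKM at the high dose. In the normal control it was 0.322, 0.234 and 0.318 FPKM. The high-dose libraries lay above those of the low dose, the medium dose and the normal control, and overlapped those with orlistat and the obese control. Each value rests on 2 to 9 reads, and 2 reads have an exact 95% Poisson interval of 0.242 to 7.22 reads, which covers counting error only. No difference in Ccl2 was tested at this depth.

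Il1b, which encodes the cytokine interleukin-1 beta (ENSRNOG00000004649, chromosome 3, 121876263 to 121882726, minus strand), was higher in the obese control than in the normal control and was called lower under orlistat and the medium and high doses, each set against the obese control. Its level was 2.27, 2.05 and 2.81 FPKM with orlistat and 3.76, 2.80 and 3.04 FPKM in the obese control. It was 3.01, 2.60 and 3.37 FPKM at the low dose, 2.45, 1.98 and 2.08 FPKM at the medium dose and 1.64, 2.70 and 2.23 FPKM at the high dose. The normal control had 1.76, 1.74 and 1.76 FPKM. The low-dose and orlistat libraries overlapped the obese control, the medium- and high-dose libraries lay below it, and the obese and normal controls did not overlap.

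Il1b was higher in the obese control than in the normal control by 0.60 ± 0.12 (limma adjusted p = 0.00056). Relative to the obese control the difference was -0.40 ± 0.12 at the medium dose (limma adjusted p = 0.014) and -0.40 ± 0.12 at the high dose (limma adjusted p = 0.011). It was -0.31 ± 0.12 with orlistat (limma adjusted p = 0.040) and -0.07 ± 0.12 at the low dose (limma adjusted p = 0.70). None of these 3 calls held throughout. The orlistat call was lost with no filter (-0.31), as TPM (-0.22), with voom on recovered reads (-0.31) and in a fit of only the 2 groups (-0.31). The high-dose call was lost as TPM (-0.32) and in a fit of only the 2 groups (-0.40). When single libraries were left out, that at the medium dose ended without obese control replicate 1 (-0.31) or medium-dose replicate 2 (-0.36), and that at the high dose without obese control replicate 1 (-0.31) or high-dose replicate 1 (-0.28). The orlistat call ended without orlistat replicate 1 (-0.29) or 2 (-0.24) and without obese control replicate 1 (-0.22) or 3 (-0.34). Ordered by mean, no neighbouring groups were called different for Il1b.

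Cd14, the lipopolysaccharide co-receptor of macrophages and hepatocytes (ENSRNOG00000017819, chromosome 18, 29560365 to 29562153, minus strand), was among the most abundant of the 9 genes and was higher in every obese group than in the normal control. Orlistat and the medium dose raised it above the obese control. Values were 24.2, 25.6 and 22.0 FPKM with orlistat and 20.3, 18.3 and 19.0 FPKM in the obese control. They were 22.6, 21.6 and 19.7 FPKM at the low dose, 25.5, 25.6 and 23.7 FPKM at the medium dose and 20.8, 19.4 and 20.9 FPKM at the high dose. In the normal control they were 14.8, 16.2 and 14.1 FPKM. The orlistat and medium-dose libraries lay wholly above the obese control, the low- and high-dose libraries overlapped it, and the normal control lay below all others.

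Cd14 was above the obese control by 0.30 ± 0.06 with orlistat (limma adjusted p = 0.001) and by 0.36 ± 0.06 at the medium dose (limma adjusted p = 0.00032). The difference was 0.14 ± 0.06 at the low dose (limma adjusted p = 0.11) and 0.08 ± 0.06 at the high dose (limma adjusted p = 0.31). Leaving out low-dose replicate 3 made the low dose pass (0.20). Rescaling to TPM, which moves the median of all genes by 0.05 to 0.15 in the treated groups against the obese control, made the low dose (0.19) and the high dose (0.26) pass as well, the high dose also with voom (0.17). Against the normal control the obese control was higher by 0.33 ± 0.06 (limma adjusted p = 0.00044), and the medium dose by 0.70 ± 0.06 (limma adjusted p = 3.5e-07). The high dose was below the medium dose by a log2 difference of -0.28 ± 0.06 (limma adjusted p = 0.0061).

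Tlr4, the lipopolysaccharide receptor (ENSRNOG00000010522, chromosome 5, 82587420 to 82601052, plus strand), lay far under its co-receptor: its group means were between 0.368 and 0.642 FPKM, against 15 to 24.9 FPKM for Cd14. It had 0.453, 0.588 and 0.666 FPKM with orlistat and 0.417, 0.597 and 0.628 FPKM in the obese control. It had 0.622, 0.599 and 0.601 FPKM at the low dose, 0.462, 0.475 and 0.361 FPKM at the medium dose and 0.685, 0.732 and 0.51 FPKM at the high dose. Normal control libraries had 0.357, 0.305 and 0.442 FPKM. All treated groups overlapped the obese control, and the orlistat, low-dose and high-dose libraries lay above those of the normal control. With 26 to 52 reads per library Tlr4 was counted better than Ccl2, but it failed the filter on low values and has no test.

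Nfkbia, which encodes the NF-kB inhibitor IkBalpha (ENSRNOG00000007390, chromosome 6, 76267228 to 76270457, minus strand), was the 1 tested gene without a call between the obese and normal controls. It was called higher than the obese control with orlistat and lower at the low and medium doses. It had 25.5, 24.9 and 24.3 FPKM with orlistat and 18.5, 21.6 and 21.5 FPKM in the obese control. Plantain groups had 18.5, 15.7 and 17.2 FPKM at the low dose, 17.6, 14.4 and 17.1 FPKM at the medium dose and 18.5, 16.9 and 19.4 FPKM at the high dose. The normal control had 17.7, 19.8 and 17.8 FPKM. The orlistat libraries lay above all others, the medium-dose libraries lay below the obese control, and obese control replicate 1 lay among the plantain and normal control values.

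Against the obese control Nfkbia was higher with orlistat by 0.27 ± 0.08 (limma adjusted p = 0.01) and lower at the medium dose (-0.31 ± 0.08, limma adjusted p = 0.0055) and the low dose (-0.25 ± 0.08, limma adjusted p = 0.027). At the high dose the difference was -0.16 ± 0.08 (limma adjusted p = 0.11), and it turned to 0.01 on the TPM scale. Between the obese and normal controls it was 0.15 ± 0.08 (limma adjusted p = 0.14). Obese control replicate 1 weighed on these calls: without it the orlistat call ended (0.20), the high dose passed (-0.23) and the obese control passed against the normal control (0.22). The low-dose call was lost on the TPM scale (-0.21), with no filter and in a fit of only the 2 groups, and when any of 4 libraries was left out: obese control replicates 2 (-0.21) and 3 (-0.21), and low-dose replicates 2 (-0.19) and 3 (-0.25). Orlistat stood apart from plantain more firmly: the low dose differed from orlistat by -0.52 ± 0.08 (limma adjusted p = 0.00011), the medium dose by -0.58 ± 0.08 (limma adjusted p = 5.7e-05) and the high dose by -0.43 ± 0.08 (limma adjusted p = 0.0015). On the TPM scale the high dose also passed as higher than the low dose (0.22) and the medium dose (0.24) for Nfkbia.

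Icam1, an adhesion molecule that holds leukocytes on endothelium (ENSRNOG00000020679, chromosome 8, 22035256 to 22047059, plus strand), gave the tightest replicates and was called in each of the 5 comparisons, a result that no alternative and no left-out library changed. It was highest at the medium dose and was lower with orlistat than in the obese control. Its values were 10.7, 10.7 and 11 FPKM with orlistat and 13.7, 13.4 and 13.3 FPKM in the obese control. They were 15.2, 14.7 and 15.7 FPKM at the low dose, 17.8, 17.7 and 18.5 FPKM at the medium dose and 15.3, 14.9 and 14.5 FPKM at the high dose. The normal control had 10.2, 10.5 and 9.96 FPKM. The 6 groups formed separate bands except for the low and high doses, which overlapped, and orlistat and the normal control were close together without overlap.

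Icam1 was lower than the obese control with orlistat (-0.29 ± 0.03, limma adjusted p = 1.8e-06). It was higher at the low dose (0.16 ± 0.03, limma adjusted p = 0.00095), the medium dose (0.39 ± 0.03, limma adjusted p = 9.5e-08) and the high dose (0.14 ± 0.03, limma adjusted p = 0.002). The obese control was above the normal control by 0.37 ± 0.03 (limma adjusted p = 1.1e-07), and orlistat differed from the normal control by 0.08 ± 0.03 (limma adjusted p = 0.069). That last difference passed as TPM, under quantile normalization and with voom (0.12 in each). The medium dose was above the low dose by 0.23 ± 0.03 (limma adjusted p = 7.1e-05), the high dose was below the medium dose by a log2 difference of -0.26 ± 0.03 (limma adjusted p = 3.8e-05), and the high and low doses differed by -0.03 ± 0.03 (limma adjusted p = 0.58), which on the TPM scale turned to 0.10 and passed. For Icam1, Cxcl1 and Cd14 alike the medium dose was called above both other doses, while 23.0% of all tested genes were called between the medium and low doses and 20.3% between the high and medium doses. For Cd14 the call above the low dose ended without low-dose replicate 3 (0.17), medium-dose replicate 1 (0.20) or medium-dose replicate 2 (0.20).

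**Figure D2:**
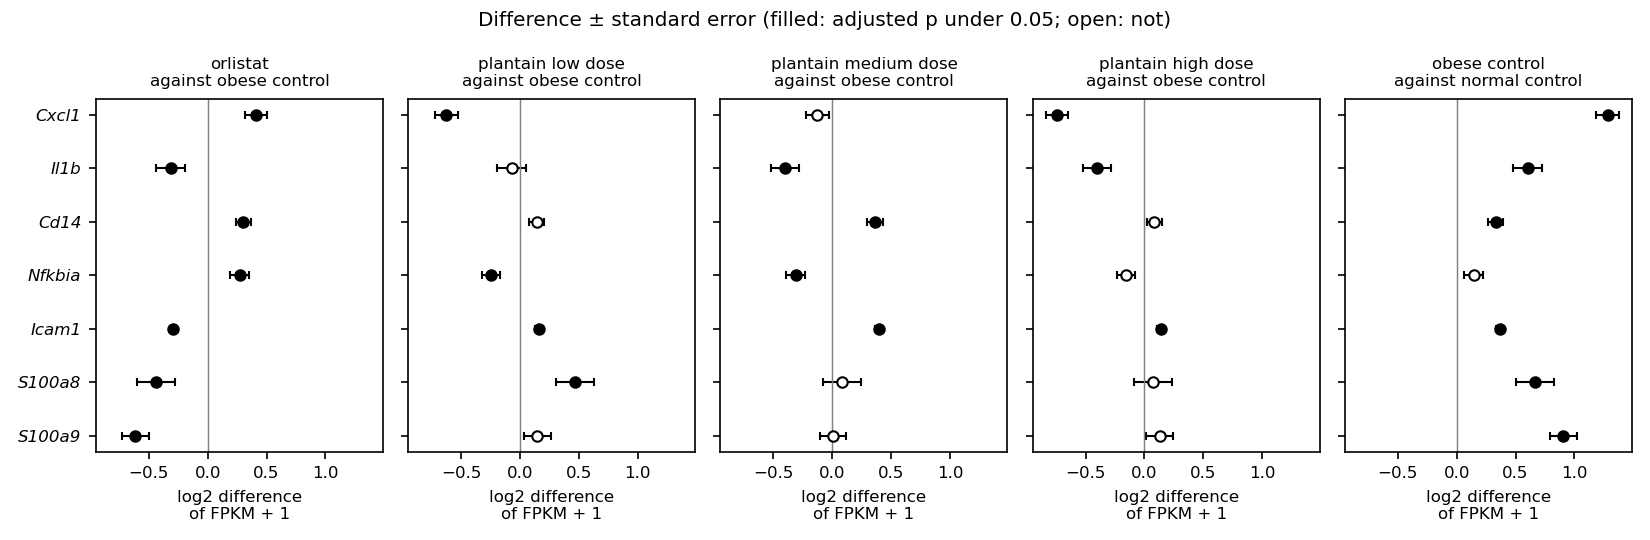
Log2 difference of FPKM + 1 (horizontal axis) ± standard error of the limma fit for the 7 tested genes in the 5 main comparisons; filled points have an adjusted p under 0.05 and open points do not. Cxcl1 and Nfkbia are above 0 with orlistat and below 0 in all 3 plantain panels, and Icam1 shows the reverse. Of these points, Cxcl1 at the medium dose and Nfkbia at the high dose were not called, and the latter turned to 0.01 as TPM. All points of the obese control against the normal control are above 0, with Nfkbia not called.

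S100a8 and S100a9, the paired alarmin genes, lie near each other on chromosome 2 (S100a8, ENSRNOG00000011557, 190073815 to 190074354, plus strand; S100a9, ENSRNOG00000011483, 190097554 to 190100276, minus strand). Both were higher in the obese control than in the normal control and lower with orlistat than in the obese control. None of the 3 doses of plantain lowered either gene. S100a8 had 2.38, 4.02 and 2.01 FPKM with orlistat and 4.12, 4.28 and 3.71 FPKM in the obese control. It had 6.08, 6.71 and 5.21 FPKM at the low dose, 5.24, 3.94 and 3.91 FPKM at the medium dose and 4.38, 3.49 and 5.14 FPKM at the high dose. Normal control libraries had 2.24, 2.18 and 2.11 FPKM. Orlistat replicate 2 stood among the obese control libraries and the other orlistat libraries near the normal control.

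S100a9 had 3.13, 4.57 and 3.58 FPKM with orlistat and 6.09, 6.19 and 6.44 FPKM in the obese control. It had 7.15, 6.79 and 7.12 FPKM at the low dose, 5.48, 6.49 and 6.93 FPKM at the medium dose and 6.45, 7.93 and 6.45 FPKM at the high dose. Normal control libraries had 3.13, 2.30 and 3.23 FPKM. The orlistat and normal control libraries overlapped each other and lay below all the rest, and orlistat replicate 2 was again the highest of its group. S100a8 rests on 16 to 54 reads and S100a9 on 31 to 89 reads per library.

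S100a9 was lower with orlistat than in the obese control by a log2 difference of -0.61 ± 0.11 (limma adjusted p = 0.00032), a call that held under every alternative and without each library. Its differences from the obese control were 0.15 ± 0.11 at the low dose, 0.01 ± 0.11 at the medium dose and 0.13 ± 0.11 at the high dose (limma adjusted p = 0.35, 0.97 and 0.37), and the low dose passed in a fit of only the 2 groups (limma adjusted p = 0.043). The obese control was above the normal control by 0.91 ± 0.11 (limma adjusted p = 6e-06). Orlistat was above the normal control by 0.29 ± 0.11 (limma adjusted p = 0.049), a call that ended with no filter, with voom and in a fit of only the 2 groups, without orlistat replicate 2 (0.17) or 3 (0.31) or normal control replicate 2 (0.18), and with the replicate number as a block (limma adjusted p = 0.057).

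S100a8 was lower with orlistat (-0.44 ± 0.16, limma adjusted p = 0.031) and higher at the low dose (0.47 ± 0.16, limma adjusted p = 0.034). Neither call held throughout. That with orlistat was lost with no filter (-0.44), as TPM (-0.35), with voom on recovered reads (-0.52) and in a fit of only the 2 groups (-0.44), and that at the low dose with no filter (0.47). The orlistat call also ended without orlistat replicate 1 (-0.37) or 3 (-0.29) or obese control replicate 1 (-0.43) or 2 (-0.41). Leaving out any of 5 libraries ended the low-dose call: obese control replicates 1 (0.48), 2 (0.51) and 3 (0.42), and low-dose replicates 1 (0.46) and 2 (0.40). At the medium and high doses the differences were 0.08 ± 0.16 and 0.07 ± 0.16 (limma adjusted p = 0.72 and 0.73). The obese control was above the normal control by 0.66 ± 0.16 (limma adjusted p = 0.0024).

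The ratio of S100a9 to S100a8 in FPKM ran from 1.01 to 2.27 with a median of 1.42 over the 18 libraries, and on the log2 scale the paired genes had a Pearson r of 0.821 over those libraries, which fall into 6 groups. The library with the highest ratio was high-dose replicate 2, where S100a9 was at its highest level and S100a8 at the lowest of its group. Of 10 neutrophil markers 8 were below 1 FPKM in all 18 libraries, Mpo, Elane, Csf3r and Camp among them. The summed level of the 10 was 2.46 to 3.37 FPKM with orlistat and 3.42 to 3.6 FPKM in the obese control. It was 2.52 to 3.71 FPKM at the low dose, 2.51 to 3.64 FPKM at the medium dose, 2.96 to 3.40 FPKM at the high dose and 2.25 to 2.64 FPKM in the normal control. The sums of the orlistat, high-dose and normal control libraries all lay below those of the obese control, narrowly so for orlistat and the high dose. Their highest sums, 3.37 and 3.40 FPKM, were next to the lowest of the obese control, 3.42 FPKM. FPKM summed over all genes was also larger in the obese control, at 600174 or more. It was at most 549373 with orlistat and 535471 at the high dose. The neutrophil sums were not rescaled for this, so the separation may rest on the scale. S100a9 lay below the obese control with orlistat and in the normal control, but at the high dose its lowest value, 6.45 FPKM, was next to the highest of the obese control, 6.44 FPKM, and the difference was not called. Of the 2 neutrophil markers that were tested, Fcnb and Ncf1, neither was called with orlistat or between the obese and normal controls. At the high dose Fcnb was higher (0.32 ± 0.13, limma adjusted p = 0.049) and Ncf1 lower (-0.31 ± 0.11, limma adjusted p = 0.025) than in the obese control. Without high-dose replicate 1 both calls ended, at 0.20 for Fcnb and -0.18 for Ncf1. The part of neutrophils in the alarmin values was not tested.

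**Figure D3:**
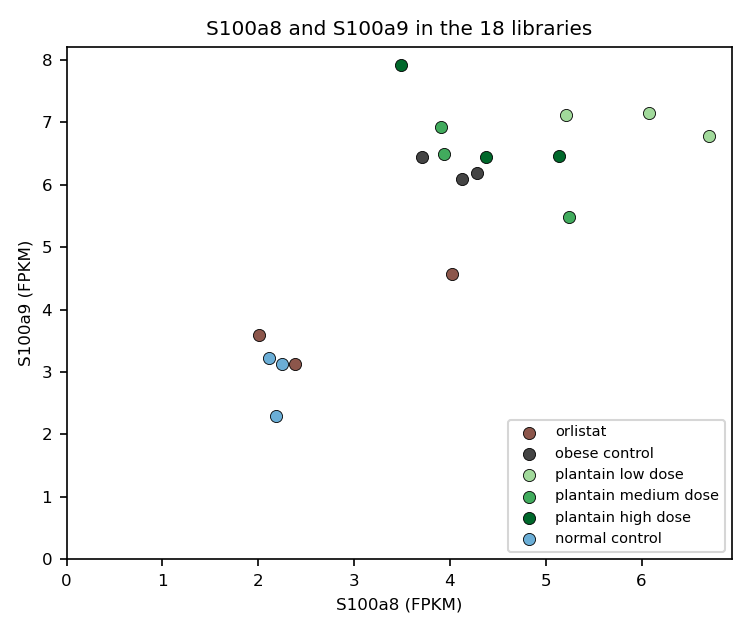
S100a9 (vertical axis, FPKM) against S100a8 (horizontal axis, FPKM) in the 18 libraries, coloured by group. The orlistat and normal control libraries lie at the lower left, with S100a9 at 4.57 FPKM or less, and the obese control and plantain libraries at 5.48 FPKM or more.

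Macrophage, endothelial and early response genes also differed between the groups and are set beside the 9 genes here. The 11 Kupffer cell markers in the table summed to 331 to 351 FPKM with orlistat, 317 to 327 FPKM in the obese control, 402 to 413 FPKM at the low dose, 262 to 270 FPKM at the medium dose, 267 to 272 FPKM at the high dose and 189 to 190 FPKM in the normal control. In the obese control 11 of 11 were called higher than in the normal control, as were 26.7% of all genes, Il1b and Cd14 among them. Relative to the obese control 10 were higher and 0 lower at the low dose, 0 higher and 10 lower at the medium dose, 0 higher and 9 lower at the high dose, and 3 higher and 1 lower with orlistat. The shares of all genes were 18.3% higher and 14.8% lower at the low dose and 21.8% and 20.1% at the medium dose. They were 26.6% and 25.3% at the high dose and 26.2% and 25.6% with orlistat. On the TPM scale the high dose had 1 higher and 5 lower, and orlistat 7 higher and 0 lower. Of all 11945 genes, 5176 were then higher and 1476 lower at the high dose, and 4989 and 1566 with orlistat. Il1b was called lower at the medium and high doses, where most Kupffer markers were lower, and also with orlistat, where they were not. At the low dose, where 10 of the markers were higher, the Il1b difference was -0.07 ± 0.12. Cd14 was higher at the medium dose while markers such as Cd5l (-0.82 ± 0.04), Cd163 (-0.72 ± 0.04) and Marco (-0.86 ± 0.09) were lower, which were picked after their values were seen. The part of Kupffer cell number or state in these values was not tested.

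The 6 sinusoidal endothelial markers summed to 83.1 to 84.4 FPKM with orlistat, 56.3 to 58.4 FPKM in the obese control, 78.6 to 80.5 FPKM at the low dose, 81.5 to 82.3 FPKM at the medium dose, 95 to 95.3 FPKM at the high dose and 42.2 to 43.0 FPKM in the normal control. In each treated group 5 of 6 were called higher than in the obese control. Of all genes, 26.2% were called higher with orlistat and 18.3%, 21.8% and 26.6% at the low, medium and high doses. With orlistat the remaining marker, Clec4g, was called lower (mean 17.9 FPKM against 22.5 FPKM in the obese control). Icam1 was higher with plantain and lower with orlistat. Immediate early genes, which respond within minutes to stress and to tissue handling, had 8 of 10 higher and 0 lower at the low dose against the obese control. Among them were Egr1 (1.14 ± 0.03), Jun (0.80 ± 0.03) and Junb (0.60 ± 0.03), named by smallest p and not by size. Their sum was 231 to 240 FPKM with orlistat, 246 to 249 FPKM in the obese control, 319 to 327 FPKM at the low dose, 227 to 230 FPKM at the medium dose, 212 to 224 FPKM at the high dose and 292 to 296 FPKM in the normal control. At the low dose Cxcl1 and Nfkbia, which are themselves early response genes, were lower while these genes were higher. Monocyte markers summed to between 3.31 and 6.01 FPKM and lymphocyte markers to between 4.74 and 7.70 FPKM over the 18 libraries, with 2 and 3 of them tested. The part of these cells and of tissue handling was not tested.

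**Figure D4:**
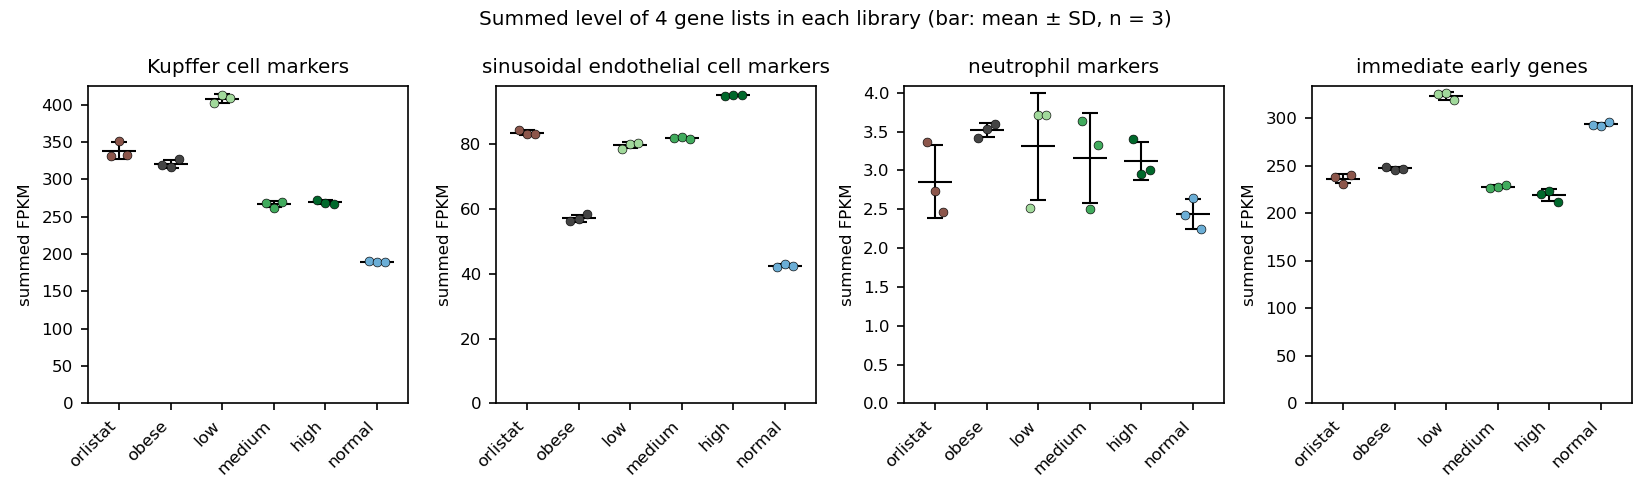
Summed FPKM (vertical axis, from 0) of Kupffer cell markers, sinusoidal endothelial markers, neutrophil markers and immediate early genes in each library, by group; bars are the mean ± SD (n = 3). Kupffer sums peak at the low dose at 402 to 413 FPKM, endothelial sums at the high dose at 95 to 95.3 FPKM, and neutrophil sums stay at or below 3.71 FPKM.

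The rest of the pathway was read from 6 lists of 73 genes, of which 50 were tested. In the obese control against the normal control 18 were higher and 11 lower, or 58% called beside 55.1% of all genes. With the obese control as comparison, 16 were higher and 7 lower with orlistat, 14 and 3 at the low dose, 9 and 10 at the medium dose and 17 and 8 at the high dose. That is 46%, 34%, 38% and 50% of the 50, beside 51.8%, 33.0%, 41.9% and 51.9% of all genes. The split leaned on the scale: as TPM it was 24 higher and 1 lower with orlistat, 16 and 3 at the low dose, 16 and 7 at the medium dose, 22 and 2 at the high dose, and 11 and 15 in the obese control against the normal control.

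Among the other chemokines, 10 of 15 were tested, and Cxcl3 was listed at 0 in all 18 libraries while Cxcl2, the closest relative of Cxcl1 on the list, did not exceed 0.132 FPKM. In the obese control 4 were called higher and 2 lower than in the normal control (26.7% and 28.4% of all genes). Relative to the obese control, 1 was higher and 4 lower with orlistat (26.2% and 25.6%). The split was 2 and 1 at the low dose (18.3% and 14.8%) and 0 and 3 at the medium dose (21.8% and 20.1%). At the high dose it was 4 and 4 (26.6% and 25.3%). Cxcl12, which holds lymphocytes and stem cells in tissue, was higher in the obese control than in the normal control (0.39 ± 0.02) and lower than the obese control at the low dose (-0.37 ± 0.02). Its falls with orlistat (-0.22 ± 0.02), at the medium dose (-0.17 ± 0.02) and at the high dose (-0.18 ± 0.02) did not pass as TPM (-0.05, -0.08 and 0.00). Ccl6, a macrophage chemokine of rodents, was higher in the obese control than in the normal control (0.53 ± 0.04). It was lower at the medium dose (-0.50 ± 0.04) and the high dose (-0.64 ± 0.04) and higher at the low dose (0.19 ± 0.04). Ccl9, the most abundant chemokine of the list, had a lower mean in the obese control (339 FPKM) than in the normal control (400 FPKM). Its mean was 411 FPKM with orlistat and 324, 350 and 383 FPKM at the low, medium and high doses.

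Of 15 cytokines and receptors 10 were tested, and Tnf and Il6 were listed at 0 in all 18 libraries. Il1a, which encodes the other ligand of the interleukin-1 receptor, was higher than the obese control in all 4 treated groups: by 0.84 ± 0.10 with orlistat, 0.87 ± 0.10 at the low dose, 0.57 ± 0.10 at the medium dose and 0.91 ± 0.10 at the high dose. Its mean was 4.58 FPKM with orlistat and 2.14 FPKM in the obese control. Il1b was called higher in none of these 4 comparisons. Il1r1, the receptor for both, was higher at the medium dose (0.23 ± 0.03) and with orlistat (0.15 ± 0.03), as was Cd14. Tnfrsf1b, a receptor for tumour necrosis factor, was higher in the obese control than in the normal control (1.19 ± 0.07), and lower than the obese control at the low dose (-0.31 ± 0.07), the medium dose (-0.46 ± 0.07) and the high dose (-0.40 ± 0.07).

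Among 14 other sensors and co-receptors only 5 were tested, and 8 of 13 in the table, Tlr2 and Nlrp3 included, stayed below 1 FPKM in all libraries. Lbp, the liver-made protein that delivers lipopolysaccharide to CD14, was higher in the obese control than in the normal control by 1.25 ± 0.04. Against the obese control it was higher at the low dose (0.41 ± 0.04) and the high dose (0.25 ± 0.04) and with orlistat (0.13 ± 0.04), where the call ended without orlistat replicate 3 (0.09). At the medium dose, where Cd14 was at its highest, the Lbp difference was -0.01 ± 0.04. Relative to the obese control Tlr3, a sensor of double-stranded RNA, was higher with orlistat (0.43 ± 0.07) and at the low (0.25 ± 0.07), medium (0.25 ± 0.07) and high (0.30 ± 0.07) doses. Its calls at the low and medium doses were lost in a fit of only the 2 groups (0.25 in each).

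Downstream, 10 of 12 adaptors and kinases were tested. In the obese control 3 were called higher and 5 lower than in the normal control (26.7% and 28.4% of all genes). Relative to the obese control, 4 were higher and 2 lower with orlistat (26.2% and 25.6%). The split was 3 and 1 at the low dose (18.3% and 14.8%). It was 4 and 1 at the medium dose (21.8% and 20.1%) and at the high dose (26.6% and 25.3%). Myd88, the adaptor of Toll-like and interleukin-1 receptors, was lower in the obese control than in the normal control (-0.43 ± 0.04). Relative to the obese control it was higher with orlistat (0.20 ± 0.04) and at the low (0.21 ± 0.04), medium (0.33 ± 0.04) and high (0.34 ± 0.04) doses. Chuk, a kinase of IkBalpha, had the same signs, at -0.57 ± 0.03 in the obese control against the normal control and 0.35 ± 0.03 with orlistat, 0.15 ± 0.03 at the low dose, 0.38 ± 0.03 at the medium dose and 0.33 ± 0.03 at the high dose. Irak1, on the same list, went the other way, with a mean of 33.5 FPKM in the obese control and 30.1 FPKM in the normal control. Its mean was 25.7 FPKM with orlistat and 27, 29.7 and 27.5 FPKM at the low, medium and high doses. As TPM its calls at the medium and high doses and between the controls were lost (-0.08, -0.10 and 0.03). All 10 of the NF-kB subunits and inhibitors on the list were tested. Relative to the obese control Nfkb1, which encodes the p105 and p50 subunit, was higher by 0.17 to 0.24 in the 4 treated groups, and Nfkbiz, an atypical inhibitor, was higher with orlistat (0.34 ± 0.05), where Nfkbia was higher too. Of 7 adhesion molecules 5 were tested, and none was called at the high dose. In that list Selp, for P-selectin, was higher in the obese control than in the normal control (0.65 ± 0.08), and 3 others were lower at the medium dose, the dose at which Icam1 was highest: Itgal (-0.30 ± 0.08), Vcam1 (-0.35 ± 0.10) and Itgb2 (-0.25 ± 0.08). The Vcam1 call ended without obese control replicate 1 (-0.28) or medium-dose replicate 3 (-0.28). The Itgb2 call ended without obese control replicate 1 (-0.20) or medium-dose replicate 1 (-0.24) or 3 (-0.23), as TPM (-0.19), with no filter (-0.25) and with voom (-0.26).

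**Figure D5:**
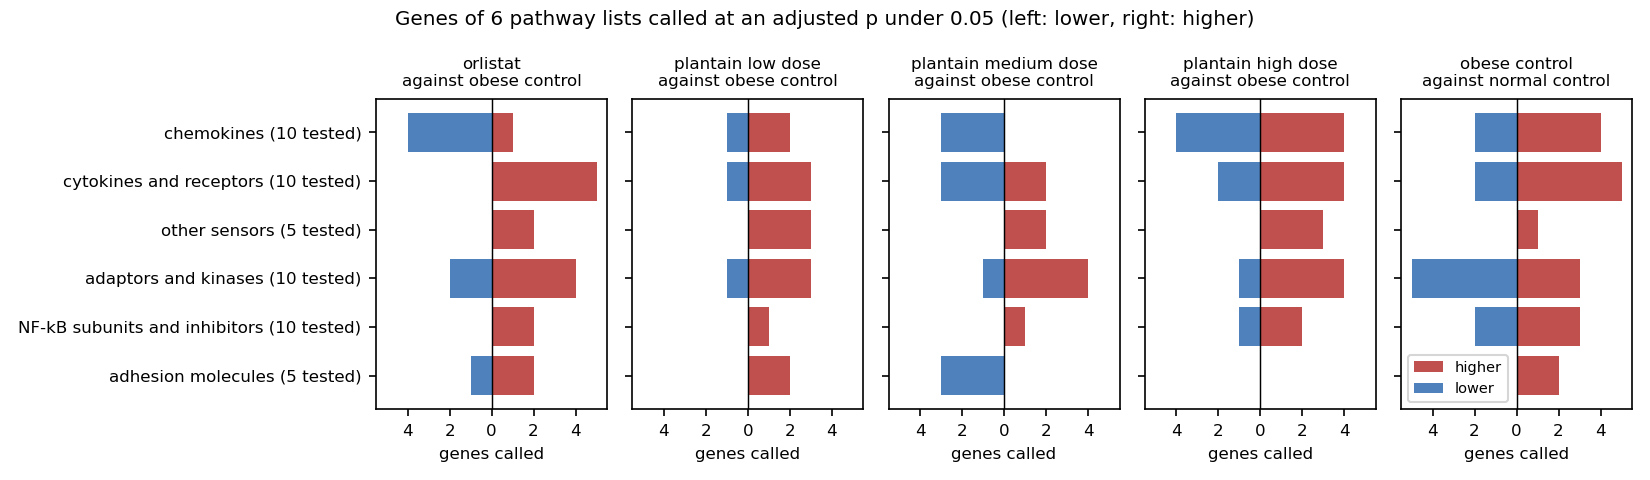
Number of tested genes called lower (left of 0, blue) or higher (right of 0, red) at an adjusted p under 0.05 in 6 pathway lists, in the 5 main comparisons. Adhesion molecules have 3 called lower at the medium dose and none at the high dose, and the other sensors have no gene called lower in any comparison.

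The genes whose log2 levels followed each of the 7 most closely over the 18 libraries are given as a description, since the libraries fall into 6 groups and share their scaling. For Cxcl1 they were Serpine2 (Pearson r 0.942), Ecm1 (0.914) and Pdgfra (0.902). For Il1b they were Wdr91 (0.879), Sat1 (0.87) and Abhd17c (0.864). For Cd14, Il1r1 came first (0.945), then Togaram2 (0.911) and Slc39a14 (0.908). For Nfkbia they were Oat (0.87), Tsc22d3 (0.869) and Rhof (0.863), and for Icam1 they were Scnn1a (0.963), Arhgef19 (0.953) and Anks4b (0.932). For S100a8 they were Cdo1 (0.895), F11 (0.89) and Id3 (0.883), and for S100a9 they were Scarb1 (0.939), Ltbr (0.933) and Plscr3 (0.931). None of the 9 genes was among another's 3 closest. Between members the highest r was 0.832, for Icam1 with S100a9, and the lowest was -0.609, for Nfkbia with Icam1.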

How the data were processed

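Liver RNA of 18 libraries was analysed, grouped by their labels. The authors deposited 1 table of FPKM per gene and library, with symbols, coordinates, lengths and rat Ensembl identifiers per the file headers. CASAVA 1.7, Bowtie 0.12.2 and mm8, a mouse build, are named per the submitters' processing notes. Rat build, annotation release and strand setting were not given in the sources used here, so coordinates are as in the file. Deposited FPKM times gene length were whole multiples of 1 step for 100% of values (tolerance 0.001), which gave the reads quoted. The authors' scaling total was 0.966 to 1.047 times that of the recovered reads, whose cause was not tested. Summed over genes, counts of replicate pairs differed by 2.99 to 6.18 times counting noise (chi-square per degree of freedom). The median of the chi-squares of single genes was 0.674 to 1.07, which is not a multiple of counting noise. A median under 1 therefore does not mean variation below counting noise. No libraries were merged.

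Genes reaching 1 FPKM in 3 or more samples entered limma 3.58.1 (under R 4.3.3) as log2(FPKM + 1), in a single model of 6 groups with a mean-variance trend, two-sided, Benjamini-Hochberg adjusted over all tested genes within a comparison. The 15 pairs of groups comprise 5 main comparisons and 10 others. An exact permutation test of 3 against 3 cannot go below 0.1. The median standard error was 0.0685. The fit was also run on simulated reads in which a small set of genes was changed in 1 group only. That run does not bear on comparisons in which large shares of genes were called, nor on the choice of scale. Alternatives were a pseudocount of 0.1, no filter, TPM, quantile normalization, voom on recovered reads, a replicate block, only the 2 groups compared, and leaving out each library. All 9 genes are named, and of each of 7 pathway and early response lists up to 3 called genes per comparison by smallest p; further list and marker genes, such as Cd5l and Il1r1 with orlistat and the doses at which a named gene is followed, were given after their values were seen. The members and lists were chosen with earlier results of these data known. How reads shared by near-identical copies were counted is unknown.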

Additional observations from a re-analysis of the deposited data

How the results depend on the processing

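Of the member calls, those on Icam1, on Cxcl1, on S100a9 with orlistat and on 6 genes in the obese against the normal control kept their direction and their side of the threshold in every alternative run. Against the obese control, so did the calls on Cd14 with orlistat and at the medium dose and on Nfkbia at the medium dose. Genes called lower with orlistat were 4, against 2 with no filter, as TPM, with voom on recovered reads and in a fit of only the 2 groups. At the low dose 2 were higher, against 1 with no filter and 3 as TPM (Cd14 added) and in a fit of only the 2 groups (S100a9 added), and 2 lower, against 1 with no filter, as TPM and in a fit of only the 2 groups. At the high dose 1 was higher, against 2 as TPM and with voom, and 2 lower, against 1 as TPM and in a fit of only the 2 groups. Leaving out 1 library gave 2 to 3 lower and 2 to 3 higher with orlistat, 1 to 3 higher and 1 to 2 lower at the low dose, 1 to 2 lower at the medium dose, 1 to 2 lower at the high dose and 6 to 7 higher in the obese against the normal control. Over the 10 other pairs, calls on the 7 tested members ran from 39 to 44 when 1 library was left out. In the main fit 15.1% to 47.8% of all genes were called in these pairs. The cause of the shifts in member calls was not tested. Directions turned only where the difference was not called. Leaving out 1 library, Il1b at the low dose ran from -0.141 to 0.023 (above 0 without obese control replicate 1, and 0.001 without low-dose replicate 2). S100a8 ran from -0.032 (without medium-dose replicate 1) to 0.141 at the medium dose and from -0.034 (without high-dose replicate 3) to 0.192 at the high dose. S100a9 at the medium dose ran from -0.055 to 0.091, with -0.008 without obese control replicate 1, -0.014 and -0.055 without medium-dose replicates 2 and 3, and -0.003 under quantile normalization. Nfkbia at the high dose turned to 0.013 as TPM. Rescaling to TPM shifted the all-gene median by 0.14 with orlistat and 0.15 at the high dose, and by -0.11 in the obese against the normal control. The higher share of called genes moved with it, from 50.6% to 76.1% with orlistat, 55.3% to 67.3%, 51.9% to 72.2% and 51.3% to 77.8% at the low, medium and high doses, and 48.5% to 30.2% in the obese against the normal control; voom gave 65.7% with orlistat, 64.4% and 65.4% at the medium and high doses and 41.1% in the obese against the normal control. The replicate block left 35 of 35 member results of the main comparisons on their side of the threshold, with 6076 genes called with orlistat against 6188 without it. Same-numbered libraries did not deviate together (r from -0.09 to 0.07 over 45 pairs, 0 over 0.1), and 4 of 18 correlated best with their own number, so the numbers do not pair the samples. Counts of 2 to 9 reads limit Ccl2, and 16 to 54 reads limit S100a8.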
